A study of Homo sapiens with 17 samples.

Results

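The regions described here are stretches of histone H3 lysine 27 acetylation (H3K27ac) that lie at an end of a long non-coding RNA (lncRNA) gene and away from every protein-coding gene end. Peaks of the 4 H3K27ac libraries on the autosomes were merged where they overlapped or touched, which gave 50200 regions. A region was taken when it overlapped a window of 1 kb either side of an end of a RefSeq lncRNA gene and lay more than 2.5 kb from both ends of every protein-coding gene. This held for 2915 regions, or 5.81% of all. The rule used position and the presence of H3K27ac in any library, and neither the arms nor any other mark. Of the other regions, 11604 touched the same window at a protein-coding gene end (coding-end regions), 33621 lay away from both kinds of end (distal regions) and 2060 fell between these definitions.

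All libraries came from HCC1954, an established HER2-positive human breast cancer cell line, transfected with antisense oligonucleotides and fixed 72 h later. The arms are labelled NC1235 and Si1235, names the labels do not spell out, and the series title names the lncRNA LINC01235. Chromatin immunoprecipitation gave 2 libraries per arm for H3K27ac, for the histone variant H2A.Z (H2AZ in the labels) and for H3K36me3, and 1 per arm for H3K9ac. ChIRP (chromatin isolation by RNA purification), which recovers DNA lying near a chosen RNA, was done once, in a library with the NC1235 name; no source used here gives the RNA that its probes captured. Since no label tells whether the replicates were grown as separate cultures, the limma p-values below reflect library-to-library spread only, part of which may be technical.

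H3K27ac and H3K9ac are acetyl marks of active promoters and enhancers. H2AZ is exchanged into nucleosomes that flank active starts and many enhancers, while H3K36me3 is laid down along the bodies of genes during transcription. Many lncRNA genes start at promoters that they share with a coding gene, at enhancers, or at promoters of their own. Keeping away from coding gene ends leaves out most of the first kind.

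The 4 H3K27ac lists held 43301 to 46731 autosomal peaks and the 4 H2AZ lists 40955 to 48980. H3K36me3 had 65432 to 79162, H3K9ac 58093 and 58189, and the ChIRP list 122190. The lists carry no read totals. At the 1500 weakest peaks of each list, the fold enrichment and p-value came from a whole-number read pileup at 99.7 to 100% of peaks in 13 libraries, but at 0.733% and 12.5% in NC1235 H3K27ac replicates 1 and 2, within a tolerance of 0.002. The pileups of those 2 lists were therefore not plain read numbers, so the arm and this property of the lists cannot be told apart in any H3K27ac contrast below. At gene end windows, all 10 markers of HER2-positive breast epithelium, ERBB2 and the keratin genes KRT7, KRT8, KRT18 and KRT19 among them, had H3K27ac in all 4 libraries. No H3K27ac was found at 5 of 6 leukocyte, 4 of 5 endothelial and 4 of 5 fibroblast markers. The exceptions were CD3E (23.2, 24.0, 57.2 and 52.4% of its windows), CDH5 (27.6, 18.8, 20.3 and 38.6%) and COL1A1 (14.2, 11.7, 14.2 and 14.1%), in the order NC1235 replicates 1 and 2, then Si1235 replicates 1 and 2. PTPRC, PECAM1 and PDGFRA, which define those cell types, were at 0 in all 4 libraries.

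Of the lncRNA promoters in the RefSeq table (hg38, GRCh38.p14; 250 bases before to 50 after an annotated start), 828 promoters of 770 genes lay wholly inside one of the 2915 regions. The 6 printed here belong to genes described below, 2 with H2AZ that was called in NC1235 alone, 2 with H3K27ac called in NC1235 alone and 2 at broad H3K27ac domains called in every library. Each reads 5′ to 3′ on the strand of its gene. Capitals mark matches on either strand to 5 motifs, none overlapping another here. The first is TGANTCA, where N is any base, the element bound by AP-1 factors. The next is CCAAT, the box bound by the factor NF-Y, and then GGGCGG, the element bound by SP1 and KLF factors. The last are TATAAA, the core of the TATA box of many promoters, and GGAATG, the element bound by TEAD factors.
THSD4-AS2 (chr15:71691490-71691789, - strand): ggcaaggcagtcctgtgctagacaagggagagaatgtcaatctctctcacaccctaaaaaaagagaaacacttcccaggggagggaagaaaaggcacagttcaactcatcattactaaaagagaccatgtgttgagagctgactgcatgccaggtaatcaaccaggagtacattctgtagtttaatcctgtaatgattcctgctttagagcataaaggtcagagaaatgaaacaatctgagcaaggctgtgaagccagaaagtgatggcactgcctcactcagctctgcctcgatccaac
LOC105369376 (chr11:72534988-72535287, - strand): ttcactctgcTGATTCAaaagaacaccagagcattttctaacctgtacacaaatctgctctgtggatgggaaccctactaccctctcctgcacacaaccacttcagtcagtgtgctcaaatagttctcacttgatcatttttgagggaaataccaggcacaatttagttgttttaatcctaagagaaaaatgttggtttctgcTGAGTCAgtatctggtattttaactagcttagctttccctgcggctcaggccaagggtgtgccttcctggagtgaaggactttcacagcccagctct
LOC124902301 (chr9:134775831-134776130, - strand): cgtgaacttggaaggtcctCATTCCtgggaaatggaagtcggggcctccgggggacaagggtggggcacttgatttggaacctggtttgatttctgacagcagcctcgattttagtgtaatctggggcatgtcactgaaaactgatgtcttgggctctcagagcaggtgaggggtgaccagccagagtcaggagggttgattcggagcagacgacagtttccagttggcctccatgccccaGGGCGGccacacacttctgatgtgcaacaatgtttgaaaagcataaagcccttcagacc
LOC107985981 (chr2:213188189-213188488, + strand): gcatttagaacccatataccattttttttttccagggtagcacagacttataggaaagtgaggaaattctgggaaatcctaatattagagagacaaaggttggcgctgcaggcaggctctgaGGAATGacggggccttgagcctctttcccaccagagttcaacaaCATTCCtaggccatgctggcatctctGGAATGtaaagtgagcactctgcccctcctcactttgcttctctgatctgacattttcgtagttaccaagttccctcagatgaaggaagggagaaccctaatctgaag
LINC00885 (chr3:196142386-196142685, + strand): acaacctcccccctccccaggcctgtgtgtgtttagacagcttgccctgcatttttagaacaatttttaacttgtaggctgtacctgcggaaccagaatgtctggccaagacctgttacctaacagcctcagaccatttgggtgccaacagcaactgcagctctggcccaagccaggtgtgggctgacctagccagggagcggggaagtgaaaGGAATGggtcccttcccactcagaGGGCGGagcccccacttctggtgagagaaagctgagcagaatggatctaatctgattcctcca
LINC01133 (chr1:159960974-159961273, + strand): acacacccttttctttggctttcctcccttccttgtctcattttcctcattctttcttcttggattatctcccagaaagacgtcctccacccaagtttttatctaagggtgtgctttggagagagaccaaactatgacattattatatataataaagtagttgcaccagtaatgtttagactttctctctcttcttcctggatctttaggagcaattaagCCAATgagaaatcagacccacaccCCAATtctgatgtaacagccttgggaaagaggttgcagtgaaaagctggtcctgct
THSD4-AS2 had none of these letters, LOC105369376 had TGANTCA at 2 places, LOC107985981 had GGAATG at 3 places, and LINC01133 had CCAAT at 2. CpG dinucleotides were few in all 6, from 1 in THSD4-AS2 to 7 in LOC124902301. A match describes the letters only and is not a binding site.

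Promoters inside the regions held more CpG than lncRNA promoters in general, and less than coding ones. Their median CpG number was 8 per 300 bases, with a GC content of 54.7%, against 5 and 50% over all 12569 lncRNA promoters and 21 and 62.7% over 21156 protein-coding promoters. TGANTCA was found in 18.2% of the promoters inside regions, in 10.3% of all lncRNA promoters and in 7.67% of all 33725 promoters of the table. GGGCGG was found in 34.1, 25.6 and 45% of the same sets, GGAATG in 19.7, 17.1 and 14%, CCAAT in 29.6, 34.4 and 34.4%, and TATAAA in 11, 15 and 11.6%. The letters also went with H2AZ. Of the 653 promoters in regions with H2AZ in all 4 libraries, 40.3% held GGGCGG and 15.6% TGANTCA, and the median CpG number was 11. Of the 64 in regions with H2AZ in no library, 7.81% held GGGCGG and 28.1% TGANTCA, and the median was 4.

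The regions were intermediate in size. Their median width was 1477 bp (range 211 to 28991), against 1796.5 bp for coding-end and 881 bp for distal regions. A median of 32.703 kb separated them from the nearest coding gene end. Even so, 899 (30.8%) lay inside the body of a coding gene, and 141 (4.84%) held an annotated inner start of one. They belonged to 2582 of 17795 autosomal lncRNA genes; 2711 regions had 1 such gene and 204 had 2 or 3. Shares of genes with a region differed by kind of symbol. MIR host genes, which carry microRNAs, had one at 24 of 82 genes (29.3%) and SNHG genes, which host small nucleolar RNAs, at 8 of 29 (27.6%). LINC genes had one at 19%, antisense (-AS) genes at 16.6%, genes known by a LOC number at 13.2% and divergent (-DT) genes at 7.24%. These shares are of all autosomal genes of a kind, also those whose ends lie too near a coding gene end to qualify. Divergent genes start beside a coding gene, so their low share was set in part by the rule.

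The regions gathered at gene starts. Strand was known for 8090 lncRNA genes whose ends both lay over 2.5 kb from coding ends, and 1201 of these (14.8%) had a region at the start and 641 (7.92%) at the far end. Counting regions, 1145 touched starts only, 616 far ends only and 220 both, and for most of the others the strand of the gene was not known. Median widths were 1419 bp at starts and 1388.5 bp at far ends. H3K27ac peaks covered the annotated start itself in 60.9, 58.8, 62.0 and 56.7% of 1302 genes with a region there, in the library order given above, which is kept below. The highest values, 62.6 to 66.6%, came 200 bases downstream.

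At the annotated base itself, H2AZ separated the 2 kinds of end more than the acetyl marks did. Over the base of the start, H2AZ peaks lay in 52.6, 45.9, 52.3 and 45.2% of genes. Over the far end the values were 17.7, 13.2, 17.0 and 13.4% of 767 genes. H3K9ac covered 60.7 and 60.1% of starts and 36.4 and 35.3% of far ends, and H3K27ac covered 43.2, 43.0, 43.0 and 39.8% of far ends. Every library of every mark was higher at starts. Replicate 2 of H2AZ was below replicate 1 in both arms, by more than the arms differed from each other.

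**Figure D1:**
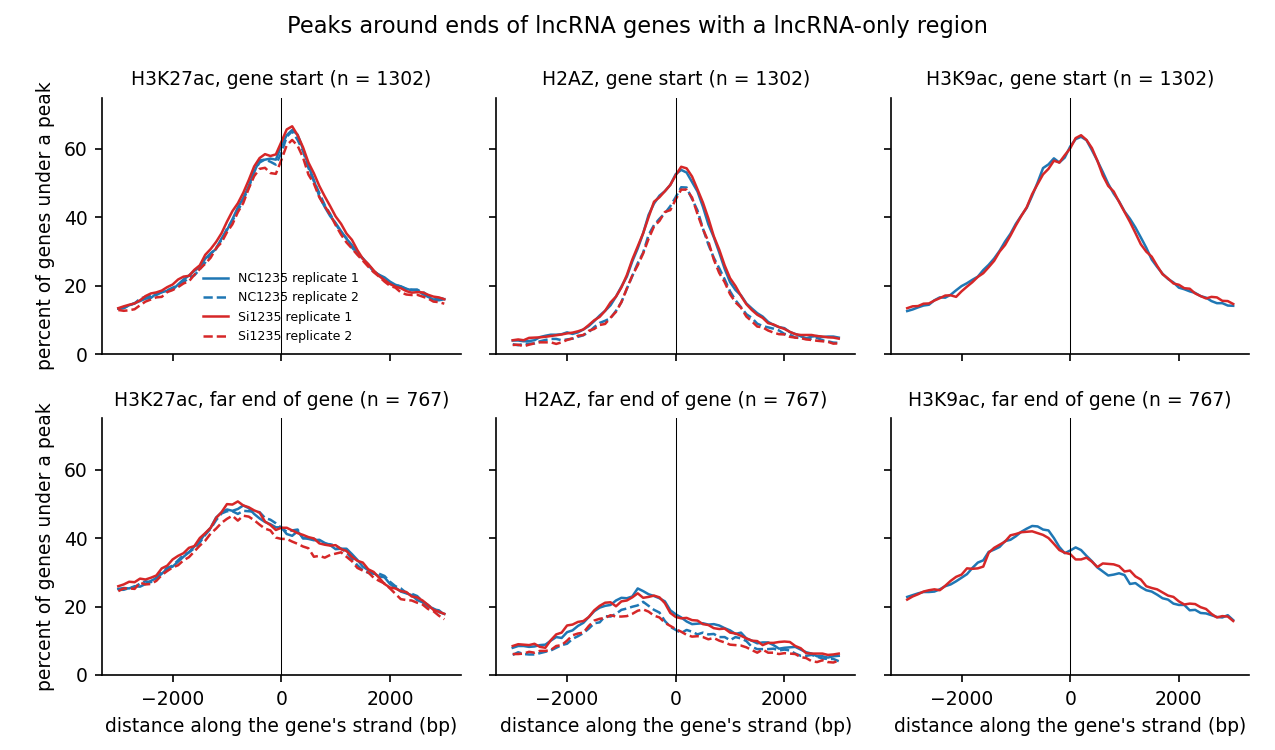
Percent of lncRNA genes lying under a peak (vertical axis) by distance in bp along the gene's strand (horizontal axis, 0 is the annotated start in the upper row and the far end in the lower row), for genes with a lncRNA-only region at that end; blue lines are NC1235 and red lines Si1235, solid for replicate 1 and dashed for replicate 2. H2AZ peaks at 48.1 to 54.8% of 1302 genes 100 bases past the start, and at far ends it stays between 19.2 and 25.3% at its highest.

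Start regions also carried more H2AZ over their whole length and within width bands. H2AZ covered on average 49.2, 43.5, 49.0 and 41.3% of the length of start regions and 27.9, 22.7, 26.1 and 19.8% of far-end regions. In regions under 500 bp, 53.6, 50, 53.2 and 43.6% of those at starts had an H2AZ peak against 25.9, 21, 23.8 and 20.3% at far ends. H3K9ac peaks in that band were at 58.6 and 56.4% of starts and 28 and 41.3% of far ends, in NC1235 and Si1235, so in NC1235 this gap was no smaller than that of H2AZ. In regions between 1 and 2 kb wide the shares were 85.2, 79.7, 81.7 and 75.6% against 68.1, 58.8, 62.5 and 51.9%. Without the regions that hold a coding start, mean H2AZ cover was 47.2, 41.2, 46.9 and 38.9% at 1050 starts and 27.5, 22.4, 25.7 and 19.5% at 606 far ends. The 141 regions with an inner coding start had the most, 69.1, 64.8, 70.3 and 65.7%. These are counts over regions that share libraries, so they carry no test.

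Taken as a class, the regions stood between coding ends and distal regions in both marks that the rule did not use. H2AZ peaks were present in 66.5 ± 3.15% of them in NC1235 and 63.7 ± 4.94% in Si1235 (SD, n = 2), against 90.5 ± 1.13% and 90.6 ± 1.2% of coding-end regions and 43.9 ± 3.73% and 40.7 ± 4.73% of distal regions. H3K9ac peaks were present in 79.1 and 79.2% of the regions (1 library per arm), in 96.6 and 96.5% of coding-end regions and in 62.2 and 62.6% of distal regions. The order was the same in each of 4 width bands. All 4 H2AZ libraries had a peak in 1578 regions (54.1%) and none had one in 722 (24.8%). Both marks were present in every library at 1446 regions (49.6%), and neither in any library at 273 (9.37%). H3K36me3 was rare, in 3.65 ± 0.558% of regions in NC1235 and 4.27 ± 0.461% in Si1235.

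**Figure D2:**
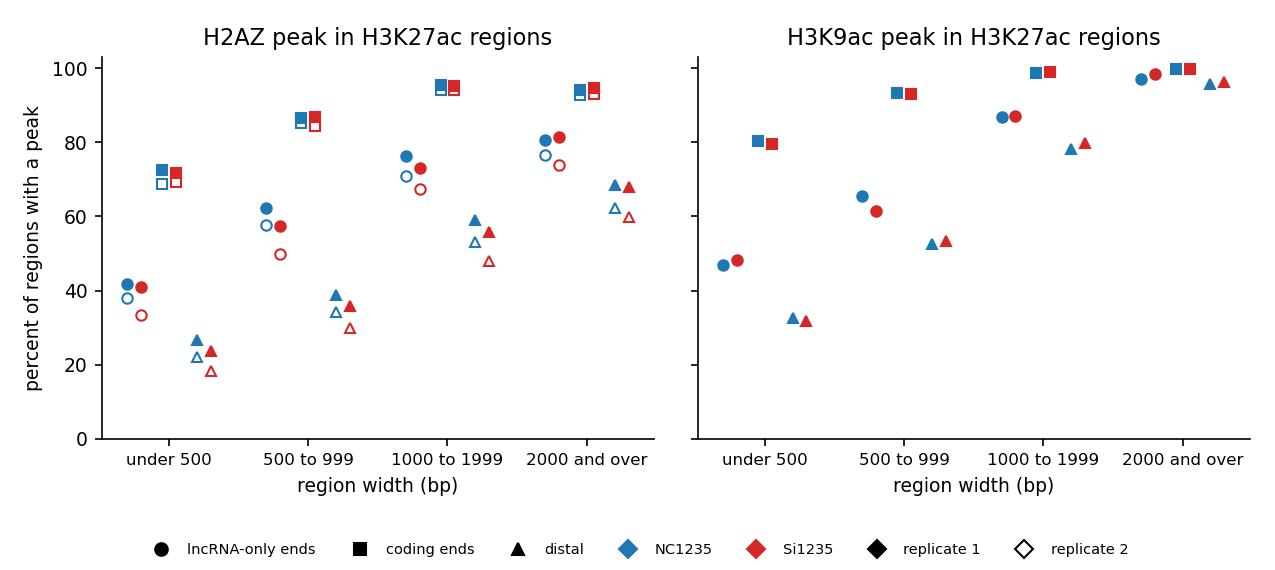
Percent of H3K27ac regions with a peak of H2AZ (left) or H3K9ac (right) by width band of the region in bp, with circles for lncRNA-only, squares for coding-end and triangles for distal regions; blue is NC1235, red Si1235, filled replicate 1 and open replicate 2. In each band and library lncRNA-only regions lie between the other classes, for example 80.6% in NC1235 H2AZ replicate 1 for regions of 2 kb and over, against 94 and 68.4%.

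Mean H2AZ cover differed across both limits of the rule. Regions that overlap a lncRNA end (1653) had 41.4%, those up to 0.5 kb away (755) 33.3% and those 0.5 to 1 kb away (507) 29.5%. Outside the window, those 1 to 1.5 kb away (515) had 22.6% and those 1.5 to 2.5 kb away (963) 23.5%. On the coding side, the 106 regions 2.5 to 3.5 kb from a coding end had 36.2%. The 156 at 3.5 to 5 kb had 40.8% and the 2653 beyond 5 kb had 37%. Regions nearer a coding end and otherwise alike had more, 46.0% for the 144 at 1.5 to 2.5 kb and 48.9% for the 70 at 1 to 1.5 kb.

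The first arm comparison asked whether the Si1235 oligonucleotide went with loss or gain of H3K27ac at these ends. Most regions had a peak in all libraries of both arms. Kept regions, with a peak in all 4, numbered 2145 (73.6%, background 64.9% of all regions). Lost regions, with peaks in the 2 NC1235 libraries alone, numbered 124 (4.25%, background 5.71%), and gained regions, the reverse, 94 (3.22%, background 3.94%). The other 552 were mixed, of which 310 had a peak in 1 library only. The share of regions with an H3K27ac peak was 85.2, 87.1, 87.1 and 83.4% by library, so the arms overlapped. Without NC1235 replicate 1 there were 217 lost regions and without Si1235 replicate 2 there were 199 gained ones, the most for any library left out.

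**Figure D3:**
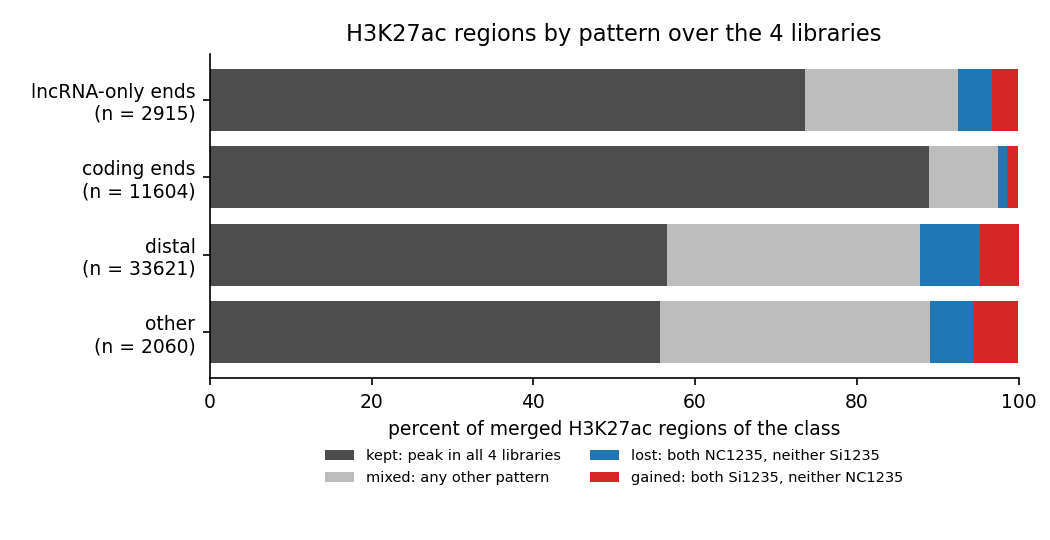
Percent of merged H3K27ac regions in each class (horizontal axis) that were kept (dark grey), mixed (light grey), lost (blue) or gained (red) over the 4 H3K27ac libraries; n is the number of regions. Of lncRNA-only regions 73.6% were kept, against 88.9% of coding-end and 56.5% of distal regions.

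Width went with these states. This was in part built in, since a region spans the merged peaks of the same libraries that set its state. Lost and gained regions had median widths of 489 and 499.5 bp and kept ones 2006 bp. Of regions of 2 kb and over 99.9% were kept, and of those under 500 bp 11.8%. Lost regions also carried less of the other marks than kept ones, in a comparison not matched for width. Among lncRNA-only regions of any state under 500 bp, H2AZ was in 41.9, 38.1, 40.9 and 33.3% by library. At 2 kb and over it was in 80.6, 76.5, 81.5 and 74%. H2AZ was found in all 4 libraries at 17 of 124 lost (13.7%), 30 of 94 gained (31.9%) and 1377 of 2145 kept regions (64.2%). In lost regions H2AZ peaks were present at 33.1, 32.3, 26.6 and 15.3% by library, against 35.6, 30.4, 25.6 and 19.3% of lost regions of all classes, with the same order of arms. In gained regions the shares were 48.9, 42.6, 50 and 39.4%, with the arms overlapping, against 29.7, 25.5, 34 and 27.8% of all gained regions. H3K9ac was in 39.5 and 37.9% of lost and 51.1 and 48.9% of gained regions in NC1235 and Si1235.

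H3K27ac extent was then compared as the percent of each region under peaks, with limma over all 50200 regions. No region passed an adjusted p of 0.05 (background 0%), among the 2915 or elsewhere, and the smallest adjusted p was 0.0512. At an unadjusted limma p under 0.05 there were 339 regions higher and 410 lower in Si1235 among the 2915, where 25.7% of all regions passed. Arms did not overlap at 770 regions higher (26.4%, background 23.6%) and 781 lower (26.8%, background 26.9%). With a difference of at least 20 points as well, the numbers were 376 (12.9%, background 12.7%) and 415 (14.2%, background 16.9%). These shares were near the background. The median difference was 0.12 points among the 2915 regions and -0.56 over all. The count of 0 rests on the model and on the normalization. With replicate number as a limma term, 125 of the 2915 regions were called higher and 187 lower (10.7%, against 12.1% of all regions). No source used here tells what same-numbered libraries share, and their H3K27ac deviations correlated at only 0.0295. Quantile normalization between libraries gave 42 higher and 48 lower among the 2915 regions, which was 3.09% of them and 3.45% of all regions. Fits with a library left out had a single library in an arm. Spread then came from the other arm only, so their calls are not given.

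The regions with the largest H3K27ac differences and separate arms were narrow and were all at 0 in the other arm. Each of the 16 had a limma adjusted p of 0.0512. LINC00336, a far end 5083 bp from BAK1 (chr6:33585359-33585806), had 0% in both NC1235 libraries and 100 and 98.4% in Si1235, a difference of 99.2 points (SE 13.8). H2AZ and H3K9ac covered the whole of that region in every library of both arms. LINC02889, in a large intergenic stretch with AHR as the nearest coding gene, had 2 gained regions at its start, chr7:17558461-17558930 and chr7:17559202-17559696. The first had 94.5 and 98.9% in Si1235 and the second 93.5 and 94.5%. Both had 0% in NC1235 and no H2AZ in any library. LOC105379600, LOC105374606, LOC105379352, LOC124901367, LOC124901395 and LINC01800 also went from 0% in both NC1235 libraries to 90.8% or more in both Si1235 libraries.

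In the other direction, LOC124904873 (chr20:14522092-14522622), LINC01696, LOC102723670, LOC107984897, LOC101928269, LOC105371695, LOC107984399 and LOC105373545 had 95% or more in both NC1235 libraries and 0% in Si1235. The 2 NC1235 libraries at LOC124904873 had 98.3 and 99.4%. LOC107984399 (chr11:120168952-120169584) starts 30839 bp from TRIM29, a gene active in basal epithelium, and kept 100% cover of H2AZ in all 4 libraries and of H3K9ac in both. At LOC105371695, a region of 263 bp whose nearest coding gene is LRRN2, H2AZ was called in NC1235 only as well, with 100 and 85.9% against 0% in both Si1235 libraries.

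Ranked by the authors' fold enrichment in the weaker of the 2 libraries, the strongest lost region lay at LOC124902003, with 13.3 and 15.3. LOC107985981 (chr2:213187639-213189611, IKZF2 the nearest coding gene) followed with 9.67 and 12.7 and with cover of 98.6 and 57.8%. Its H2AZ cover was 53.3, 35.3, 46.8 and 25.6% by library. TP73-AS2 (chr1:3711608-3713015), antisense to the p53-family gene TP73, had folds of 11 and 9.05 and cover of 92.2 and 95.5%. H3K9ac covered 0.923% of that region in the NC1235 library and 96.4% in the Si1235 library. LOC124902301 (chr9:134775795-134776265), in the collagen gene COL5A1, had 91.5 and 98.5% in NC1235 and no H2AZ in any library. MPP7-DT, LOC105379010 and LOC105371094 completed the list with LOC107984399.

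Among gained regions, GLIDR (chr9:39809908-39810187) had the highest folds, 12 and 15.2, with cover of 85.4 and 100% in Si1235. H2AZ and H3K9ac covered at least 86.8% of it in every library of both arms. LOC124902913 and LINC02489 had 100% H2AZ cover in all 4 libraries as well, while LOC105379600, LOC124904065, LOC105374542 and both LINC02889 regions had none. Lost and gained H3K27ac calls thus lay both at regions with the other promoter marks in place and at regions without them.

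H2AZ extent was tested in the 2068 regions with a mean H2AZ cover of at least 5%. No region passed an adjusted p of 0.05 in limma (background 0% of 31021), with a smallest adjusted p of 0.0764. Unadjusted, 67 were higher and 96 lower in Si1235, where 8.83% of all tested regions passed. Arms did not overlap at 313 regions higher (15.1%, background 14.6%) and 349 lower (16.9%, background 16.3%), and with at least 20 points at 79 (3.82%, background 3.83%) and 147 (7.11%, background 7.94%). The median difference was 0 points among the regions and over all tested. Calls of fits with a library left out are not given, for the reason stated for H3K27ac.

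Of the named H2AZ differences, 3 lower ones lay in regions that had also lost H3K27ac. THSD4-AS2 (chr15:71691443-71691819), antisense to the extracellular matrix gene THSD4, had H2AZ at 95.5 and 100% in NC1235 and 0% in both Si1235 libraries. H3K27ac there was 96.3 and 61.3% against 0%, and H3K9ac 100 and 64.2%. LINC02321 had H2AZ at 85.4 and 90.2% and H3K27ac at 62.2 and 90.6% in NC1235, and 0% of either in Si1235. H3K9ac remained there, with 64.3% in NC1235 and 88.4% in Si1235. At LOC105371695, given above, H3K9ac was at 100% in NC1235 and 88.6% in Si1235. LOC105369376 (chr11:72534547-72535741) had 85.2 and 75% H2AZ against 0%, while its H3K27ac narrowed from 92.4 and 91.7% to 25.9 and 49.7% and stayed in all 4 libraries. LOC102723516 and LOC107984777 had 100% H2AZ in both NC1235 libraries and 0% in Si1235, with H3K27ac in a single NC1235 library. LOC105372814 had 85.8 and 65.7% H2AZ, and LOC124901339 had 77.5 and 71%, against 0%. H3K27ac went the other way at both, with 100% in a single Si1235 library and 0% in both NC1235 libraries. The H2AZ differences ran from -100 to -74.2 points, with limma adjusted p from 0.0764 to 0.199.

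H2AZ was higher in both Si1235 libraries at DCST1-AS1 (chr1:155044631-155045033), where it went from 0% to 63.5 and 60.5% and H3K27ac stayed at 74.9 to 85.1%. LINC03064 went from 0% to 64.3 and 61.3%, and LOC124901951 from 0% to 100 and 86.6%. At LOC124901951 H3K27ac went the other way, with a peak in NC1235 replicate 1 only. SH3RF3-AS1 (chr2:109125133-109126622) had 23, 0, 67.2 and 78.1% by library. H3K27ac moved the same way there, from 34.3 and 22.4% to 100 and 90% (limma adjusted p of 0.053 for H3K27ac and 0.327 for H2AZ). H3K9ac at SH3RF3-AS1 went the other way, from 73.2% in NC1235 to 35.6% in Si1235, with a single library per arm. LOC105371335, LINC02042, LOC105379047 and LOC105373936 differed by 65.5, 61.5, 59.4 and 59.2 points. Without NC1235 replicate 1 the difference was 36.7 points at LOC105371335, 38.8 at LINC02042 and 91.5 at LOC105379047, and without NC1235 replicate 2 it was 27.2 at LOC105379047. With equal numbers of top peaks per library it was 11.7 at LINC02042 and 25.2 at LOC105373936. For these 8 regions the adjusted p ran from 0.0764 to 0.786.

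**Figure D4:**
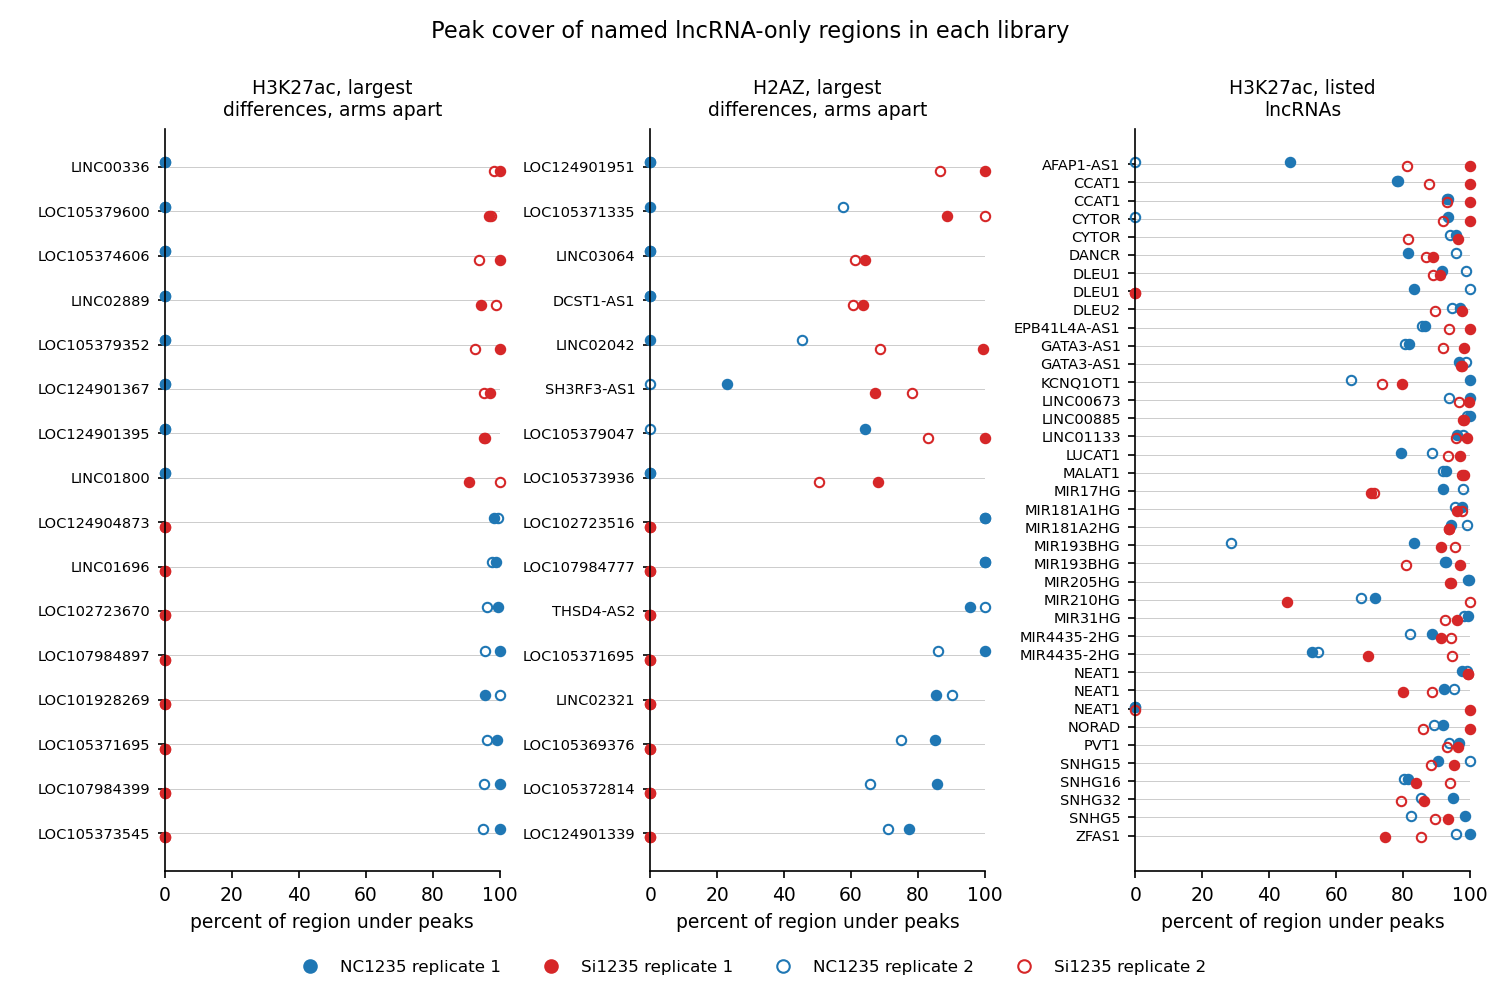
Percent of each region under peaks (horizontal axis) in each library, for the 16 regions with the largest H3K27ac difference and separate arms (left), the same for H2AZ (middle), and H3K27ac at the 38 regions of listed lncRNAs (right, first symbol shown where a region has several); blue is NC1235, red Si1235, filled replicate 1 and open replicate 2. The selected regions on the left lie at 0% in one arm and at 90.8% or more in the other, while most listed lncRNAs lie above 60% in all 4 libraries.

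Where H3K27ac separated the arms, H2AZ leaned the same way. Of the 591 regions with higher H3K27ac in Si1235 and a mean H2AZ cover of at least 5%, H2AZ was higher without overlap at 127 (21.5%) and lower at 85 (14.4%). Of the 545 with lower H3K27ac it was higher at 74 (13.6%) and lower at 127 (23.3%). Over all regions the shares were 20.4 and 11% for higher H3K27ac and 10.9 and 24.9% for lower, so this is not a property of lncRNA ends alone. The sources used here do not say whether the marks were pulled down from the same chromatin.

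H3K9ac had 1 library per arm, so its differences have no replicate check. Mean cover was 57.6% in NC1235 and 58.3% in Si1235, and 2142 regions (73.5%) had a peak in both. Among regions with H3K27ac in all 4 libraries, the largest H3K9ac differences were at LOC105374367 and LOC107986478 (0 against 100%), LINC02884 (0 against 99.4%), LOC101928502 (0 against 97.6%) and NTRAS (0 against 95.7%). LINC01645 had 100% in NC1235 and 0% in Si1235. At LINC02884 H2AZ cover was 67, 96.6, 100 and 73.6% in the 4 libraries, and at LINC01645 91.5, 94.1, 100 and 88.5%.

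A list of 78 well-studied lncRNAs and microRNA host genes placed known names on these counts. Of the 74 in the table, 30 had a region at an end, 38 regions in all. Of the 38, 34 were kept (background 73.6% of the 2915 regions and 64.9% of all), 1 was lost, 0 were gained and 3 were mixed. H2AZ was in all 4 libraries at 29 of them, H3K9ac in both at 36, and a ChIRP peak lay in 6. The shares of the 2915 regions were 54.1, 73.5 and 12.9%. The 38 regions were not matched to the others for width, which went with each of these measures. None passed the limma threshold for H3K27ac or H2AZ.

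Broad domains stood at MALAT1 and NEAT1. MALAT1, an abundant RNA of nuclear speckles, had a domain of 14043 bp over the whole gene (chr11:65495917-65509959), with H3K27ac at 92.8, 92, 98.1 and 97.7% by library. NEAT1, the scaffold of paraspeckles, had one of 15205 bp with 97.7, 99, 99.5 and 99.3%, and a second of 4837 bp with 92.2, 95.1, 79.9 and 88.8%; another NEAT1 region, of 327 bp, had a peak in Si1235 replicate 1 only. H2AZ covered 8.77, 14.6, 20.5 and 12.7% of the MALAT1 domain and 7.44 to 9.47% of the first NEAT1 domain. KCNQ1OT1, the antisense RNA of an imprinted domain, had a narrower region of 1402 bp with 100, 64.5, 79.7 and 73.6%. At MALAT1 both Si1235 libraries were above both NC1235 libraries by a mean of 5.54 points (SE 2.35; limma adjusted p of 0.207).

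Cover varied among host genes of small RNAs. MIR205HG (chr1:209427106-209436479), which holds the epithelial microRNA miR-205, had H3K27ac at 99.5, 99.6, 94.2 and 94% by library, with peak folds of 145 to 166. MIR31HG had 99.5 and 98.1% against 96 and 92.6%, while its H2AZ was at 19.5 and 17.8% against 28.2 and 26.7%. Less was covered at MIR210HG, with 71.5, 67.5, 45.3 and 100%, and at 1 of 2 regions of MIR193BHG, with 83.3, 28.4, 91.5 and 95.6%, and of MIR4435-2HG, with 52.6, 54.5, 69.4 and 94.6%. MIR17HG, host of a microRNA cluster driven by MYC, had 91.9 and 98% against 70.3 and 71.3%, a difference of -24.1 points (SE 8.63; limma adjusted p of 0.154). SNHG5, SNHG15, SNHG16 and SNHG32 had between 79.3 and 100% in each library. ZFAS1, a host of small nucleolar RNAs, had a region at its far end with 100, 96, 74.7 and 85.4% by library and no H2AZ.

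Other listed genes are named for a cytoplasmic role or a link to tumours. NORAD, which binds Pumilio proteins, had 91.9, 89.2, 100 and 86.1%, and DANCR 81.4, 96, 88.9 and 87%. GATA3-AS1, divergent to the luminal factor gene GATA3 and with inner coding starts in both its regions, had 96.7, 98.9, 97.2 and 97.8% at its start and 81.7 and 80.6% against 98.2 and 92% at its far end. LUCAT1, a stress-induced RNA, had 79.3, 88.6, 97.1 and 93.4% by library. LINC00885 (chr3:196134239-196145205) had 97.8% or more in each library over 10967 bp, with H2AZ at 6.18 and 3.97% and then 17.1 and 13.3%. LINC01133 (chr1:159957251-159962294) had 95.9% or more in each. The far end of DLEU1 (chr13:50528918-50530268), a gene of the region deleted in lymphoid tumours, was the lost region, with 83.1 and 100% in NC1235 and 0% in Si1235 (limma adjusted p of 0.0512). Its H2AZ remained at 73.1, 53.9, 71.6 and 73.7%, and the region at its start was kept with 91.7, 98.7, 91.2 and 89%. AFAP1-AS1 had 46.1, 0, 100 and 81.3%, and was mixed, as were 1 of the CYTOR and 1 of the NEAT1 regions.

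LINC01235, the RNA that the series is about, had no such region. The nearest H3K27ac region, of 537 bp (chr9:13427705-13428241), lay inside the gene, 3088 bp from its end, and was thus distal by the rule. A region that the rule did take lay 51947 bp beyond the annotated interval of LINC01235 (chr9:13406380-13431329). This was the far end of LOC105375977 (chr9:13483276-13494623, 11348 bp), with H3K27ac at 99.3, 99, 96.7 and 97.7%. H2AZ there was 40.8, 28.6, 67.3 and 58.8%, so the arms did not overlap. The difference was 28.4 points (SE 7.61; limma adjusted p of 0.495).

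That region also held the strongest ChIRP peak of all 2915, at chr9:13487633-13488431, with a fold enrichment of 214. It was the second highest of 122190 autosomal ChIRP peaks, whose median was 11 and highest value 231. The next were LINC02939 (110, rank 115 in the list), LINC00513 (96.8), LOC105374065 (93.6), the region shared by LINC01011 and NQO2-AS1 (83.3) and LOC124901572 (67). LOC124901572 had H3K27ac in a single library, and the other 5 regions were kept. LINC00513 (chr7:130909659-130917805) had no H2AZ in any library, and the region of LINC01011 and NQO2-AS1 had H2AZ at 68.9 to 85.7%.

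Over all widths, the ChIRP share was within the interval of coding ends and above that of distal regions. A ChIRP peak lay in 377 regions, or 12.9% (95% Wilson interval 11.8 to 14.2), against 13.2% of coding-end (12.6 to 13.8), 10.2% of distal (9.89 to 10.5) and 11% of all regions (10.7 to 11.3). Mean ChIRP cover did not follow that order. It was 2.29% in the regions, 2.18% in coding-end, 2.45% in distal and 2.37% in all regions. Overlap rose with width in each class. In regions under 500 bp it was 3.86% (2.56 to 5.77) against 3.89 and 4.47% in coding-end and distal regions, and in those between 1 and 2 kb 9.13% (7.29 to 11.4) against 10.3 and 11.2%. In regions of 2 kb and over it was 24% (21.5 to 26.6) against 19.6% (18.5 to 20.7) and 20.9% (20 to 21.8). That band has no upper width limit, and mean ChIRP cover in it was 2.5% against 2.24 and 2.44%. Within the regions, kept ones, with their larger widths, had a ChIRP peak at 15.6% and lost ones at 7.26%. Of those of 2 kb and over, 23.6% had one where H2AZ was in all libraries and 22.7% where it was in none. The intervals cover counting over regions only, since there was 1 ChIRP library.

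**Figure D5:**
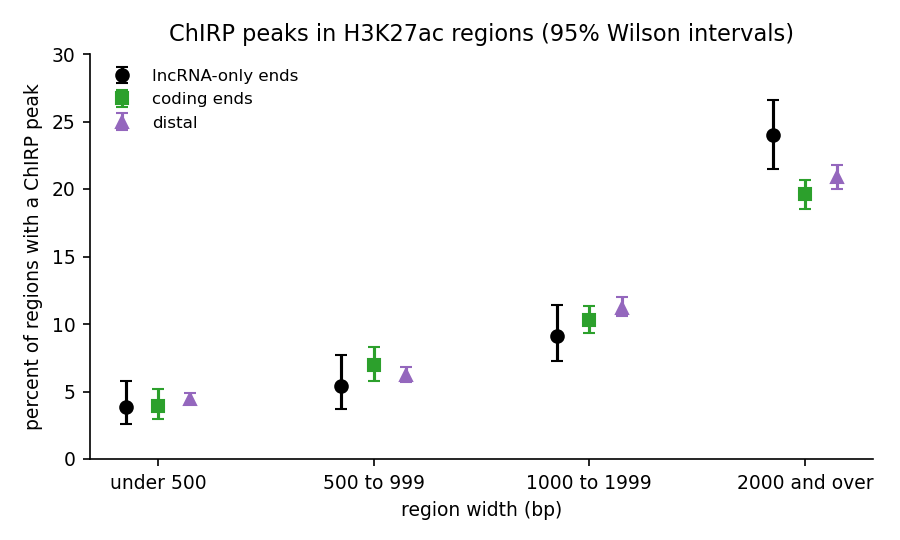
Percent of H3K27ac regions with a ChIRP peak (vertical axis, 1 library) by width band of the region in bp, for lncRNA-only (circles), coding-end (squares) and distal regions (triangles), with 95% Wilson intervals as bars. The share rises from 3.86% to 24% of lncRNA-only regions between the narrowest and widest bands, and the classes lie close together in the 3 narrower bands.

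The widest regions present in all 4 libraries were long acetylated domains. LINC02836 had the longest, 28991 bp (chr6:105585654-105614644), with H3K27ac at 99.4, 99.3, 96.9 and 95.4% and H2AZ at 5.28% or less. The domain shared by CARINH and LINC02863, between SLC22A5 and the interferon factor gene IRF1 on chromosome 5, measured 21893 bp and had 87.6, 84.7, 95.4 and 96.8%. LOC105372656 and LOC107985386, whose nearest coding gene is CEBPB, shared 20167 bp at 98.8% or more. LINC01698 had 100, 98.1, 88.7 and 90.3%. At LNCAROD (chr10:52440834-52455994), near the WNT inhibitor gene DKK1, H3K27ac was at 95.5, 99.9, 74.1 and 67% by library, a difference of -27.1 points (SE 8.11; limma adjusted p of 0.115). The others were at MIR3150BHG, LINC03108, AOPEP-AS1, NEAT1 and the pair LINC01914 and LINC02898. In all 10 domains H2AZ covered at most 25.1% in any library and H3K9ac at least 61.9%.

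Regions whose nearest coding gene was on a list of breast epithelial, growth and interferon genes numbered 45. Of these 32 were kept, 1 was lost (nearest to KLF4) and 1 gained (nearest to BCL2L1). The shares kept, lost and gained were 73.6, 4.25 and 3.22% of the 2915 regions and 64.9, 5.71 and 3.94% of all regions. The widest were at LOC124904004 near the keratin gene KRT17 (12051 bp; 99.4, 96.4, 93.3 and 92.9%), PVT1, KRT7-AS (97, 92.9, 98.8 and 100%), INKILN near the chemokine gene CXCL8 (96.6, 99.9, 94 and 92.8%) and NFIB-AS1 (93.9, 95.6, 99.8 and 95.3%). LINC02874, LOC102723530 and the region of LOC105376398 and LOC105376399 followed. NFIB-AS1, whose region holds 4 inner coding starts, had H2AZ at 53.6 to 56.1% in all 4 libraries, and KRT7-AS had none in any.

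H3K36me3 was used to look along the lncRNA genes behind these ends. Of 1490 genes of at least 2 kb with a region at an end and no coding gene over their body, 65 (4.36%) had a mean cover of at least 5%, and 1355 (90.9%) were at 0 in all 4 libraries. Of 8352 such genes without a region, 85 (1.02%) reached 5%. Among genes with a name other than a LOC number, ZFAS1 was covered most, at 91.3, 91.2, 92.6 and 91.9%, then CHASERR at 79.3 to 83.9%, MIR205HG at 72.1 to 84.2% and SNHG16 at 73.8 to 78.1%. MALAT1 had 62.7, 65.7, 68.5 and 70.1%. NEAT1 went the other way, with 62.1 and 53.5% against 44.1 and 43.7%, and DANCR had 41.3 and 36.4% against 53.3 and 46.3%. None of the 65 passed the limma threshold (background 0% of 9252 gene bodies), with an adjusted p of 0.675 at NEAT1. An unadjusted limma p under 0.05 was reached by 11 of the 65, a larger share than the 7.71% of all bodies. These genes share libraries, so the difference in shares carries no test. LUCAT1, CCAT1, MIR210HG and DLEU1 were at 0 in all 4 libraries although each had a kept H3K27ac region at an end.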

How the data were processed

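The submitters' processing notes name Bowtie2 2.2.9, MACS2, HTSeq 2.0.3, DESeq2 1.22.2 and the build hg38, with no role or order; no source used here gives the control for peak calling. Each of 15 deposited lists holds the peaks of 1 library, with the authors' fold enrichment (a linear ratio) and −log10 p and q-values and a deposited score. No list of the 2 inputs was used. The deposited H3K9ac peak names carry another residue's name, and the labels were followed. RefSeq tables of GRCh38.p14 gave gene ends and, through promoters, strand.

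Cover, the percent of a region under peaks of a library, was computed in Python 3.11.15 and tested with limma 3.58.1 (trend, no replicate term) in R 4.3.3 as Si1235 minus NC1235, with Benjamini-Hochberg adjustment over all regions of a mark and a threshold of 0.05. Regions entered the H2AZ fit, and gene bodies the H3K36me3 fit, at a mean cover of at least 5%. Overlap meant 1 bp. Cover treats a weak and a strong peak alike, and depth, which is not given, sets how wide peaks are called. Interval and fitting code was tested on simulated data.

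The regions named were, per mark, the 8 of largest difference with separate arms in each direction (none passed the threshold), the 8 lost and 8 gained with the highest fold in their weaker library, the 10 widest kept, the 6 of largest H3K9ac difference, the 6 of highest ChIRP fold, and those of 2 gene lists. Printed promoters came from these lists in order. Members and lists were chosen with earlier results of these data known. Left out were sex chromosomes and other contigs.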

Additional observations from a re-analysis of the deposited data

How the results depend on the processing

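The count of kept regions stayed within 1.5 times of 2145 under every alternative tried (1882 to 2269). The number of regions became 4393 with a 2.5 kb window at lncRNA ends and was between 2408 and 2715 otherwise. Leaving out 1 library, which asks for a peak in fewer libraries, gave 152 to 217 lost regions (217 without NC1235 replicate 1, 193 without Si1235 replicate 1) and 128 to 199 gained ones (146 without NC1235 replicate 2, 153 and 199 without Si1235 replicates 1 and 2). In a replicate block, within replicate 1 there were 215 lost and 270 gained regions and within replicate 2 there were 305 and 197, so the order of lost and gained differed between the numbers. With the replicate block as a limma term, 125 regions were called higher and 187 lower in H3K27ac (10.7% of them, against 12.1% of all regions), and with quantile normalization 42 and 48 (3.09 against 3.45%); H2AZ and H3K36me3 had 0 calls with the block, and H3K36me3 had 1 higher with quantile normalization. No source used here tells what same-numbered libraries share. Their deviations correlated at 0.0295 for H3K27ac, 0.0577 for H2AZ and 0.270 for H3K36me3. H2AZ and H3K36me3 peaks lay in fewer regions in replicate 2 than in replicate 1 of both arms. For H2AZ the shares were 68.71 and 64.25% in NC1235 and 67.2 and 60.21% in Si1235. For H3K27ac the order of the replicates differed between the arms. Whether a batch goes with the replicate number was not tested. Without 1 library, limma called 0 to 200 regions higher and 0 to 219 lower for H3K27ac and 0 to 38 and 0 to 109 for H2AZ, with a lone library assumed to vary like the others. H3K27ac calls were nearly all higher ones without an Si1235 library and lower ones without an NC1235 library. In each of these fits the spread came only from the arm that kept both libraries. The calls and their direction are therefore not read as arm differences. The minimum mean cover of 20% removed no H3K27ac region. The difference in the share of regions with a peak, -0.909 points for H3K27ac and -2.78 for H2AZ, ran from -2.76 to 0.943 and from -6.28 to 0.72 without 1 library. Within replicates 1 and 2, an alternative added after seeing the data, it was 1.89 and -3.7 for H3K27ac and -1.51 and -4.05 for H2AZ. At a −log10 q of at least 5, H3K9ac was in 72.8 and 72.4% of regions, and with the ChIRP summit inside the region 11.3% had a ChIRP peak. The 32 named differences kept their direction wherever they had a value; 31 had one at a −log10 q of at least 5. At that setting the difference fell to 50 points at LOC105379352 (H3K27ac; also with equal numbers of top peaks) and, for H2AZ, to 50 at LOC124901951, 34.4 at LINC02042, 30.3 at SH3RF3-AS1 and -42.9 at LOC105372814. The 16 named for H3K27ac passed the threshold under the replicate block (limma adjusted p from 0.00175 to 0.00211) and under quantile normalization. No list gives read depth, so regions in the lists' weak range cannot be told from regions missed for depth.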
